A study of Mus musculus with 24 samples.

Results

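The genes described here copy DNA and supply its building blocks. Of 37 listed symbols, 34 were found on the array, as genes with at least 1 probe set annotated to that symbol alone, out of 18820 genes measured in the same way. Gins2, Rfc4 and Tyms were not found by this rule, because their probe sets are annotated to several symbols. Fen1, Pcna and Tk1 each had 2 probe sets, of which the one with the higher mean over all arrays was used. Pcna's pair gave nearly the same values, while the second Tk1 probe set was dimmer and flatter than the first. Most of the genes fall in 4 roles: 6 subunits of the MCM helicase (Mcm2 to Mcm7), 7 polymerase and primase genes (Pola1, Pola2, Prim1, Prim2, Pole, Pole2, Pold1), 5 genes of helicase activation (Mcm10, Cdc45, Gins1, Gins3, Gins4) and 4 of the sliding clamp and its loader (Pcna, Rfc2, Rfc3, Rfc5).

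RNA was measured on 24 1-colour Affymetrix mouse arrays, 3 for each of 8 groups, from whole liver and from cultured primary hepatocytes. The mice are given as male and aged 8 weeks. The genotypes were the double knockout NEMOΔhepa/KEAP1Δhepa, the single knockouts NEMOΔhepa and KEAP1Δhepa, and the control NEMOf/f, which carries the floxed NEMO allele. The knockouts were made with Alfp-Cre, a Cre recombinase driven by liver-specific albumin and alpha-fetoprotein regulatory elements, so that other cell types of the liver are not its intended target. NEMO is the regulatory subunit of the IKK complex that activates NF-kB, and KEAP1 is the adaptor that sends the antioxidant transcription factor NRF2 for degradation. Hepatocytes were isolated by collagenase perfusion, plated in medium with serum until the following day and then given fresh medium. The labels do not tie arrays of the 2 tissues to the same animal. They call each array a replicate from a mouse of its genotype without saying that each came from a different animal, so the p-values measure the spread between these samples only. In whole liver and in cultures, fewer cells of a type and less RNA per cell cannot be told apart.

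As background, replication starts where the origin recognition complex, with Cdc6 and Cdt1, loads the MCM helicase onto DNA in G1. In S phase Mcm10, Cdc45 and the GINS complex activate the helicase, primase and the polymerases copy the strands, and the clamp Pcna, its loader, Fen1 and Lig1 complete them. Ribonucleotide reductase (Rrm1 with Rrm2) and thymidine kinase (Tk1) supply deoxynucleotides, and Chaf1a and Chaf1b place histones on the new DNA. Many of these genes are transcribed from E2F-dependent promoters when a cell leaves rest, and in the adult liver most hepatocytes are at rest.

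On 4 arrays the data went against the label or stood apart from the group, and results are given with and without them. Liver control 3 had Nqo1, an NRF2 target, at 9.17 on the log2 scale, against 4.71 and 5.37 on liver controls 1 and 2. Liver double knockout 3 had Adipoq, a fat cell gene, at 7.17, against 2.32 and 2.54 on the other arrays of its group. The female-specific transcript Xist reached 9.76 on hepatocyte double knockout 3 and 9.65 on hepatocyte control 1, where Eif2s3y from the Y chromosome read 2.71 and 2.51. Both arrays are labelled male. Ikbkg, the gene for NEMO, measured 6.26, 6.25 and 6.14 in NEMO knockout liver, against 6.86, 6.81 and 6.40 in control liver. Keap1 measured 5.47, 5.38 and 5.76 in KEAP1 knockout liver, against 6.04, 6.35 and 5.88 in control liver. Whether these probe sets lie in the deleted exons was not tested.

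Promoter sequences were searched for several motifs, and none of these lay in every member with a promoter. RefSeq promoters (GRCm38.p6, 250 bases before to 50 after the start) were available for 28 of the 34 members. They were searched on both strands for 4 forms of the E2F site, the 8-base words TTTCGCGC, TTTGGCGC, TTTCCCGC and TTTGCCGC. At least 1 match lay in the promoters of 13 members (46.4%), against 524 of 14749 measured genes with a promoter (3.6%). The share was as high among the E2F and cyclin E regulators, with 8 of 17 (47.1%). It was 8 of 30 in other replication factors (26.7%), 1 of 9 in G1 cyclins and inhibitors (11.1%), 1 of 14 in mitosis genes (7.1%) and 1 of 26 in other nucleotide supply genes (3.8%). The order differed for the CHR, the cell cycle homology region TTTGAA, which lay in 12 of 14 mitosis promoters (85.7%), 4 of 28 members (14.3%) and 17.3% of all genes. The CCAAT box, CCAAT, was found in 18 members (64.3%) and in 41.9% of all genes. Over the other lists it ran from 38.5% in other nucleotide supply genes to 100.0% in mitosis genes. The antioxidant response element core TGACNNNGC lay in 7 members (25.0%) and in 15.4% of all genes. Its share ran from 0.0% in E2F and cyclin E regulators to 55.6% in G1 cyclins and inhibitors. A match is a description of the letters and not evidence of binding.

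The 5 stretches printed here, each 200 bases from 170 before to 30 after the start, are shown because their genes carry the results below. Mcm6 and Mcm5 had the largest changes in NEMO knockout against control hepatocytes, Rfc3 and Rrm2 were the 2 members called in NEMO knockout liver on all arrays, and Mcm10 ran against the rest. Capitals mark the E2F matches, and each stretch runs 5′ to 3′ in the direction of the gene.
Mcm6 (chr1:128359676-128359875, minus strand): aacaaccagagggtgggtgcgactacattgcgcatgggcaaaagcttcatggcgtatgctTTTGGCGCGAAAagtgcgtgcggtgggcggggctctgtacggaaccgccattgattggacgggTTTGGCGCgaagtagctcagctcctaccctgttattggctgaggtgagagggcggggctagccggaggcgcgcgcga
Mcm5 (chr8:75109339-75109538, plus strand): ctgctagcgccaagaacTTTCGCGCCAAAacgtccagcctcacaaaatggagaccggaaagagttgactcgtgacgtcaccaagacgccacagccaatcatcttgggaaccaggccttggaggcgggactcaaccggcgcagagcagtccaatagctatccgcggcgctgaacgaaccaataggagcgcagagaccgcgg
Rfc3 (chr5:151651179-151651378, minus strand): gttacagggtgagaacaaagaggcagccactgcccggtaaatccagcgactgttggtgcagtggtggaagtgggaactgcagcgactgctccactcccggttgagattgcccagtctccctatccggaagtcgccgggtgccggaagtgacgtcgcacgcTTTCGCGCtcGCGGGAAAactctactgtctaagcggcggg
Rrm2 (chr12:24708084-24708283, plus strand): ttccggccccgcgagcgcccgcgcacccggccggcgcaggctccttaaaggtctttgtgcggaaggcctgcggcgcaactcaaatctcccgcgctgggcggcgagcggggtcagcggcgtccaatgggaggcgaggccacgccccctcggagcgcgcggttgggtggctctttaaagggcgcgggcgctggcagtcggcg
Mcm10 (chr2:5012762-5012961, minus strand): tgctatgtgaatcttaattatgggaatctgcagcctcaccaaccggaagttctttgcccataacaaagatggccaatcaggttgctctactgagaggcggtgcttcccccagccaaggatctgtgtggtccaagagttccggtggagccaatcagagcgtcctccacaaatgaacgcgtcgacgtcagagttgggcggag
Mcm6 has 3 matches, 2 of them overlapping, with first bases at -110, -106 and -47 from the start. Mcm5 has 2 overlapping matches at -153 and -149, and Rfc3 has 2 at -10 and 1, the base at 1 being the start itself. Rrm2 and Mcm10 have no match in this window, and hold 1 and 3 CCAAT boxes in their 300 bases.

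**Figure D1:**
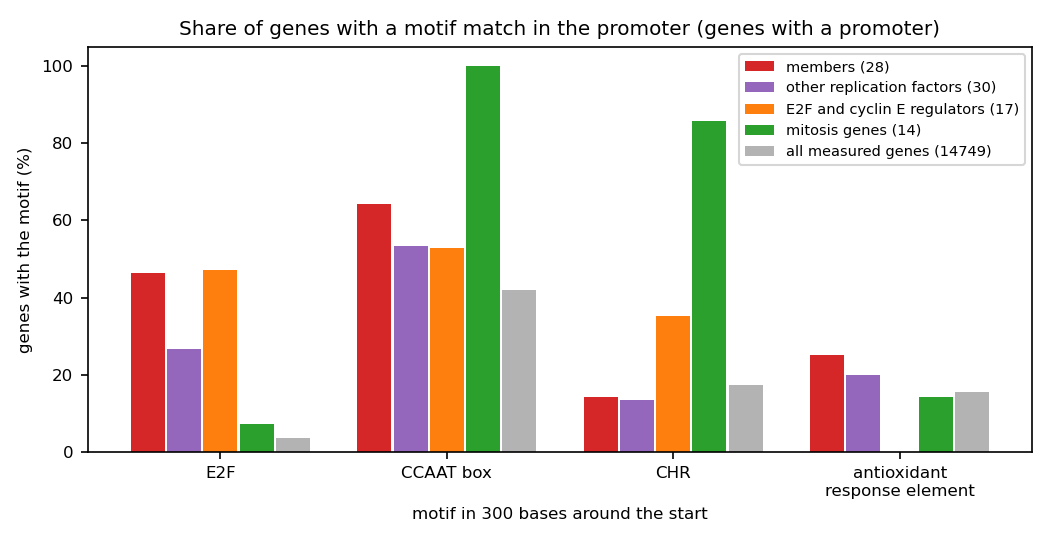
Share of genes (%) whose 300 promoter bases hold each motif, as bars for the members, other replication factors, E2F and cyclin E regulators, mitosis genes and all measured genes, with the number of genes that have a promoter in brackets. The E2F bar is 46.4% for the members, 47.1% for the E2F and cyclin E regulators and 7.1% for the mitosis genes, while the CHR bar is 14.3% for the members and 85.7% for the mitosis genes.

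Across all 24 arrays, 4 of the 34 members averaged under 4 on the log2 scale. Values of different probe sets are not compared as levels. In hepatocytes, the mean over the 34 members ran from 5.05 to 5.33 on double knockout arrays, 5.30 to 5.49 on NEMO knockout arrays, 4.92 to 4.96 on KEAP1 knockout arrays and 4.87 to 4.91 on control arrays. The hepatocyte arrays with NEMO loss therefore all lay above those without it. In liver the same mean ran from 5.21 to 5.37 in the double knockout, 5.37 to 5.76 in the NEMO knockout, 4.98 to 5.06 in the KEAP1 knockout and 4.79 to 5.31 in the control. The liver control range is wide because of control 3, at 5.31, while the other two were at 4.79 and 4.84.

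**Figure D2:**
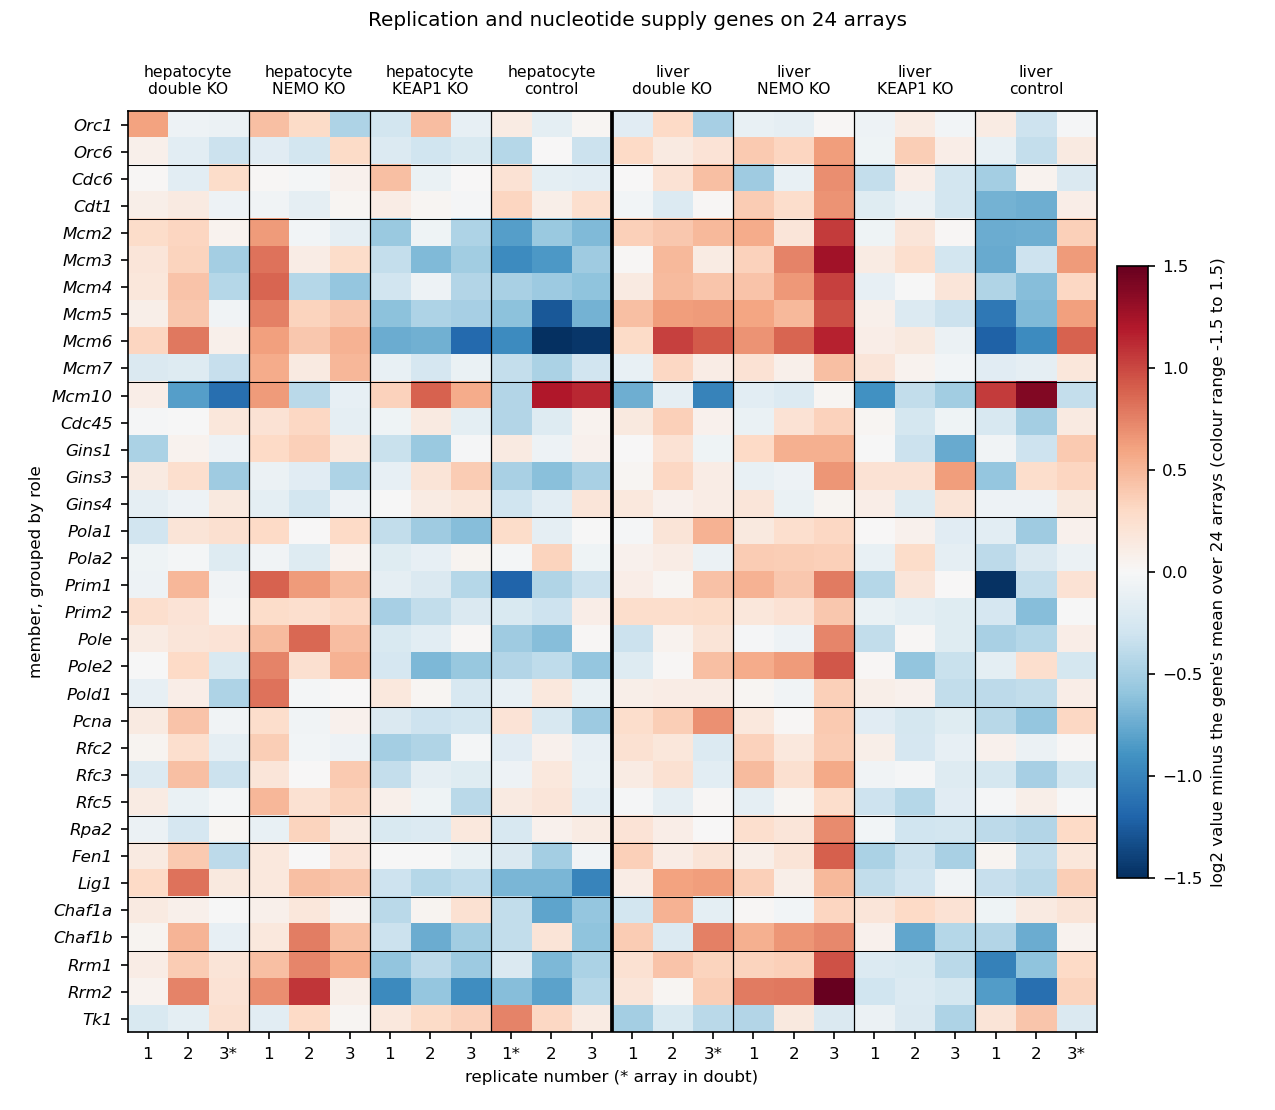
Log2 value of each of the 34 members minus its own mean over 24 arrays (colour, from -1.5 in blue to 1.5 in red), with members in rows by role and arrays in columns by tissue and genotype; stars mark the 4 arrays in doubt. Mcm6, Rrm1 and Rrm2 lie above their mean in every NEMO and double knockout column and below it in every control column but liver control 3, and Mcm10 is highest on hepatocyte controls 2 and 3 and liver controls 1 and 2.

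**Figure D3:**
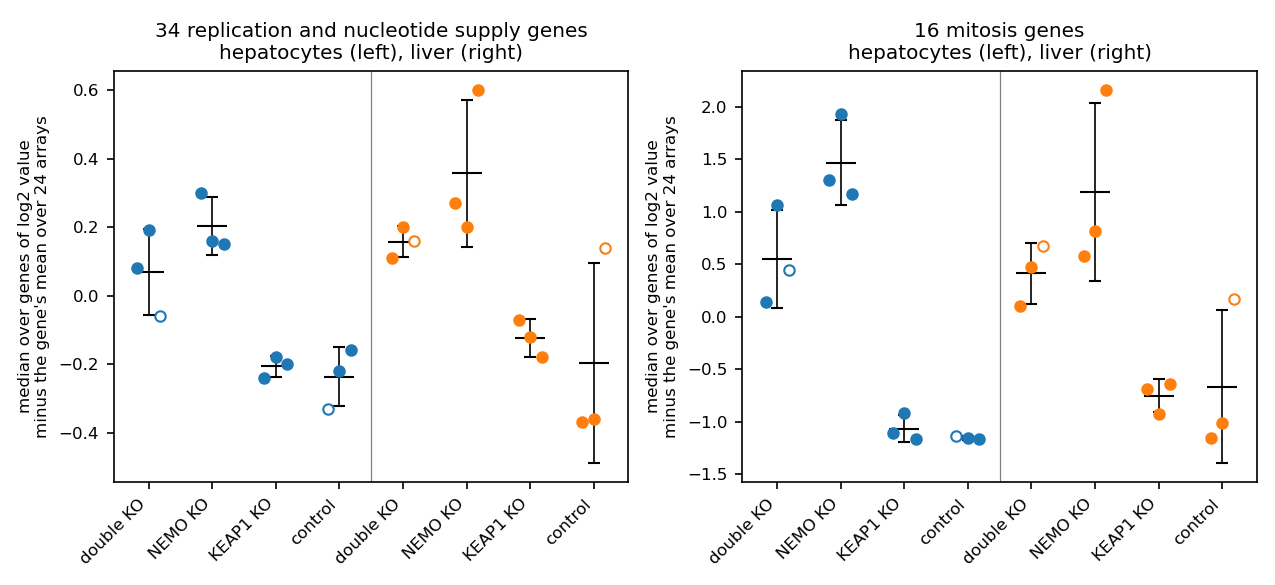
Median over the genes of the log2 value minus each gene's mean over 24 arrays, for the 34 members (left) and 16 mitosis genes (right), with 1 point per array, open points for the 4 arrays in doubt, and the mean and SD of each group in black (n = 3). The members' medians lie between 0.15 and 0.30 in NEMO knockout hepatocytes and between -0.33 and -0.16 in control hepatocytes.

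In cultured hepatocytes, loss of NEMO was accompanied by higher transcripts of the MCM helicase, primase, polymerase epsilon, DNA ligase I and ribonucleotide reductase. At an adjusted p under 0.05 (limma, adjusted over all 18820 genes), 12 of the 34 members were higher in NEMO knockout than in control hepatocytes and 0 were lower. Of all genes, 6.65% were called in either direction and 4.61% higher. The members' median change was 0.32 on the log2 scale, against -0.02 over all genes. Without regard to a threshold, the 2 groups did not overlap for 17 members that were higher, where 11.2% of all genes did so, and for 1 that was lower, Cdt1, where 11.8% did.

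The MCM helicase, the ring that unwinds DNA, had 5 of its 6 subunits called. Mcm6 measured 6.33, 6.12 and 6.23 in NEMO knockout hepatocytes, against 4.77, 4.19 and 4.25 in control hepatocytes. Its change was 1.82 ± 0.20 (SE, n = 3 each, adjusted p = 0.000135 by limma), a 3.54-fold difference. Mcm5 measured 5.69, 5.27 and 5.33 in the NEMO knockout, against 4.32, 3.66 and 4.23 in the control, a change of 1.36 ± 0.19 (adjusted p = 0.000721, limma). Both genes were higher on every knockout array than on any control array. Mcm3 measured 5.95, 5.25 and 5.41 in the NEMO knockout, against 4.20, 4.28 and 4.61 in the control. It changed by 1.18 ± 0.23, Mcm2 by 0.83 ± 0.20 and Mcm7 by 0.77 ± 0.13, with adjusted p of 0.00672, 0.0217 and 0.00258 (limma). Mcm4 was the exception, at 6.13, 4.83 and 4.68 in the NEMO knockout, against 4.78, 4.72 and 4.66 in the control. Its 0.50 ± 0.31 rests on 1 array.

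Among the polymerase and primase genes, Prim1, the catalytic primase subunit, measured 5.88, 5.63 and 5.47 in NEMO knockout hepatocytes, against 3.79, 4.55 and 4.67 in control hepatocytes. It changed by 1.33 ± 0.23 (adjusted p = 0.00299, limma), and 1.05 ± 0.19 without the arrays in doubt. The catalytic subunit of polymerase epsilon, Pole, measured 4.97, 5.36 and 4.97 in the NEMO knockout, against 3.97, 3.86 and 4.51 in the control (0.99 ± 0.18, adjusted p = 0.00406, limma). Its partner Pole2 measured 4.46, 3.96 and 4.24 in the NEMO knockout, against 3.28, 3.34 and 3.14 in the control (0.97 ± 0.18, adjusted p = 0.00493, limma). Pole2 was dim, with a mean of 3.72 over the 24 arrays. The other members of the group were not called: Prim2 at 0.42 ± 0.14, Pold1 at 0.28 ± 0.22, Pola1 at 0.16 ± 0.17 and Pola2 at -0.14 ± 0.13.

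Lig1, the ligase that seals Okazaki fragments, measured 5.09, 5.38 and 5.34 in NEMO knockout hepatocytes, against 4.24, 4.24 and 3.94 in control hepatocytes. It changed by 1.13 ± 0.17 (adjusted p = 0.00134, limma) with no overlap of the groups. Fen1, the flap endonuclease acting before it, measured 4.54, 4.39 and 4.59 in the knockout, against 4.17, 3.87 and 4.34 in the control, and its 0.38 ± 0.19 was not called. Of the nucleotide supply genes, Rrm1, the large subunit of ribonucleotide reductase, measured 6.62, 6.90 and 6.72 in the NEMO knockout, against 5.95, 5.50 and 5.70 in the control (1.03 ± 0.13, adjusted p = 0.000413, limma). Its S phase partner Rrm2 measured 6.53, 6.91 and 5.93 in the NEMO knockout, against 5.20, 5.04 and 5.40 in the control (1.24 ± 0.23, adjusted p = 0.00563, limma). Tk1, thymidine kinase, went the other way without being called, at 6.42, 6.88 and 6.62 in the NEMO knockout, against 7.33, 6.90 and 6.71 in the control. Its second probe set did not, at 6.44, 6.14 and 6.17 in the NEMO knockout, against 6.41, 6.06 and 6.02 in the control.

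The chromatin assembly subunit Chaf1a was called at 0.68 ± 0.17 (adjusted p = 0.0289, limma), and its partner Chaf1b, at 4.39, 5.00 and 4.68 in the NEMO knockout against 3.86, 4.43 and 3.63 in the control, was not (0.72 ± 0.24). Several roles had no member called: origin recognition (Orc1, Orc6), helicase loading (Cdc6, Cdt1), helicase activation, single-strand binding (Rpa2), and the clamp with its loader, whose 4 changes lay between 0.16 and 0.31. Cdc45, of the active helicase, measured 4.94, 5.04 and 4.59 in NEMO knockout hepatocytes, against 4.29, 4.54 and 4.78 in the control. Gins1 measured 5.26, 5.32 and 5.13 in the NEMO knockout, against 5.10, 4.89 and 5.02 in the control, and Pcna 8.27, 7.95 and 8.06 in the NEMO knockout, against 8.21, 7.76 and 7.46 in the control. Rpa2, a single-strand binding protein, measured 4.56, 5.00 and 4.81 in the NEMO knockout, against 4.42, 4.73 and 4.79 in the control. For Cdc45, Pcna and Rpa2 the groups overlapped. Leaving out any 1 array left 10 to 12 members called, where 807 to 1196 genes were. Without the 4 arrays in doubt 11 members were called, all 11 among the 12, where 5.58% of all genes were called and 4.14% higher.

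**Figure D4:**
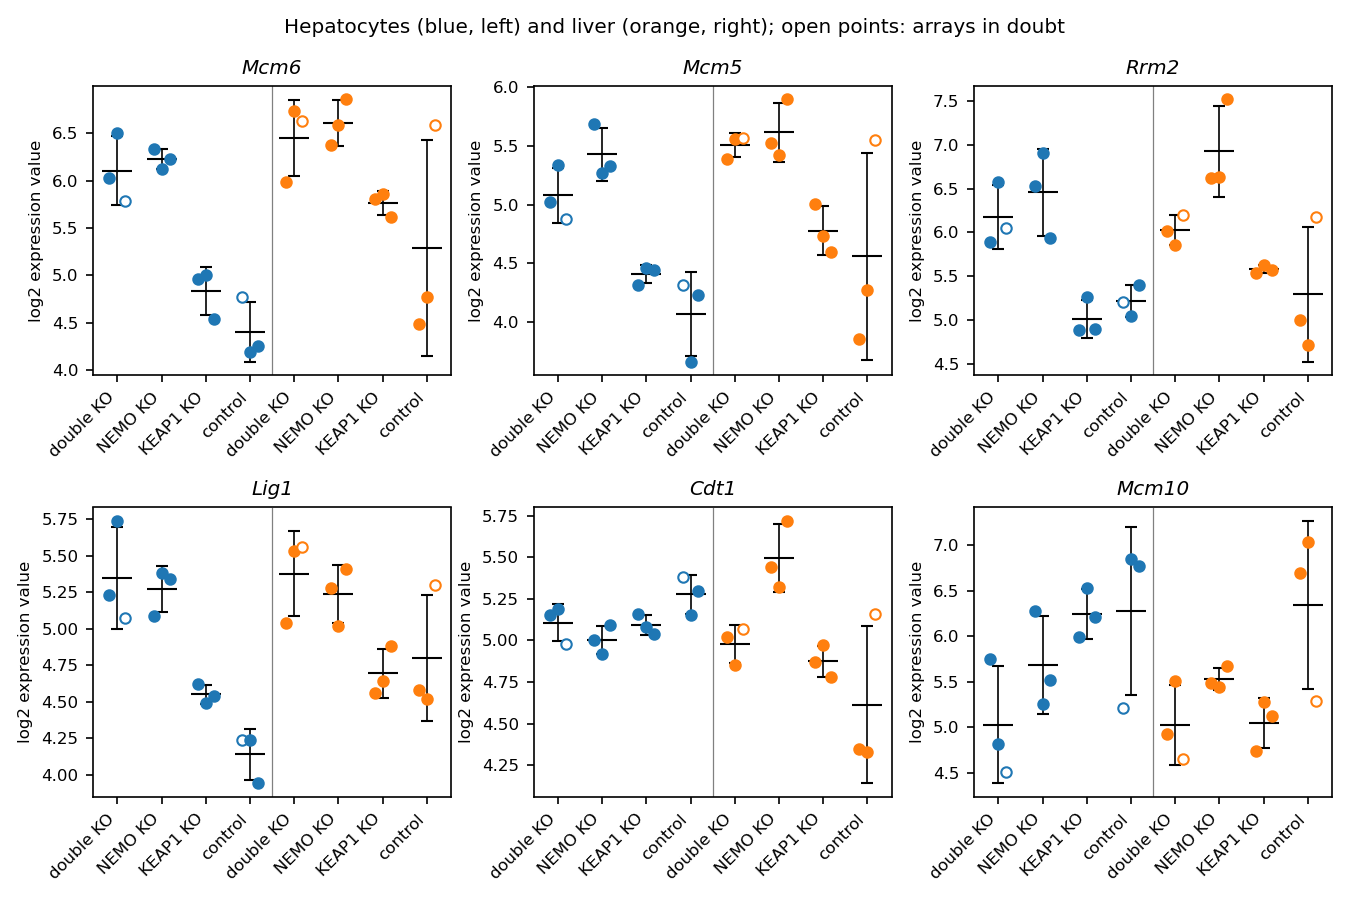
Log2 expression value of 6 members on each array, by tissue (blue hepatocytes, orange liver) and genotype, with open points for the 4 arrays in doubt and the mean and SD of each group in black (n = 3). Mcm6 lies at 6.12 to 6.33 in NEMO knockout hepatocytes and 4.19 to 4.77 in control hepatocytes, and Mcm10 on liver control 3, at 5.29, lies apart from 6.70 and 7.04 on the other 2 liver controls.

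Other lists of the same process moved to differing degrees in NEMO knockout against control hepatocytes. All 16 mitosis genes were higher, with a median change of 2.70. Top2a, the topoisomerase of dividing cells, measured 6.32, 6.83 and 6.01 in the knockout, against 3.30, 3.43 and 3.6 in the control, and Mki67, a marker of cycling cells, measured 7.51, 8.19 and 7.77 in the knockout, against 3.81, 3.54 and 3.99 in the control. The replication factors outside the member list had 4 of 35 higher and 0 lower, with a median of 0.04, and 1 of the 4 was Dbf4, the activating subunit of the Cdc7 kinase (1.45 ± 0.18). Of 28 other nucleotide supply genes, 2 were higher and 1 lower. E2f1 was called at 0.84 ± 0.15, Ccnd1 (cyclin D1) at 2.46 ± 0.49, and Ccne1 (cyclin E1) was not, at -0.32 ± 0.20. Gmnn, geminin, which blocks Cdt1, was at -0.19 ± 0.23, and Rrm2b, the p53-induced form of the reductase subunit, at -0.55 ± 0.18, and neither was called.

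Markers of other liver cells moved in the same comparison. All 8 macrophage markers, all 6 endothelial markers and 6 of 7 stellate cell markers were higher in NEMO knockout than in control hepatocyte cultures. Their mean log2 levels ran from 7.41 to 7.89, 7.46 to 7.81 and 6.15 to 6.39 in the knockout, against 5.57 to 6.50, 5.58 to 6.50 and 4.38 to 4.92 in the control. T and NK cell markers had 0 of 7 called and means of 3.08 to 3.25 in the knockout and 3.11 to 3.26 in the control. Hepatocyte markers, at 12.46 on all NEMO knockout arrays to that rounding and 12.44 to 12.55 on control arrays, had 0 of 8 called. In KEAP1 knockout cultures the 6 endothelial markers were also all higher than in control cultures, by a median of 1.28. Mean levels in KEAP1 knockout cultures ran from 6.34 to 7.10 for macrophage markers and 7.08 to 7.60 for endothelial markers. Those of stellate cell markers ran from 5.10 to 5.20. The part of these cells in the members' values was not tested.

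Loss of both genes also went with higher transcripts of the helicase, ligase and reductase genes in hepatocytes. Against control hepatocytes, 9 of 34 were higher in the double knockout and 0 lower, where 9.72% of all genes were called and 6.73% higher. All 9 are among the 12 of the NEMO comparison, which uses the same control arrays: Mcm2, Mcm3, Mcm5, Mcm6, Prim1, Lig1, Chaf1a, Rrm1 and Rrm2. Mcm6 measured 6.03, 6.50 and 5.78 in the double knockout (1.70 ± 0.20 above control, adjusted p = 0.000147, limma). Lig1 measured 5.23, 5.74 and 5.07 in the double knockout, a change of 1.21 ± 0.17 (adjusted p = 0.000536, limma). Rrm2 measured 5.89, 6.58 and 6.05 in the double knockout (0.96 ± 0.23, adjusted p = 0.019) and Mcm5 5.02, 5.34 and 4.88 in the double knockout (1.01 ± 0.19, adjusted p = 0.00374, limma). On each of these genes every double knockout array lay above every control array. Mcm2 measured 5.83, 5.87 and 5.60 in the double knockout, Mcm3 5.32, 5.47 and 4.63 in the double knockout, Prim1 4.92, 5.49 and 4.94 in the double knockout and Rrm1 6.28, 6.55 and 6.36 in the double knockout. In all, 12 members were higher with no overlap between the groups, where 13.1% of all genes were.

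In this comparison 4 members (1042 of 18820 genes) were called without double knockout 2 and 5 members (1433 genes) without control 2. Leaving out those in doubt gave 9 higher and 1 lower, with 7 of the first 9 among them, where 9.23% of all genes were called, 6.44% higher and 2.79% lower. The lower one was Mcm10 (-1.53 ± 0.33, adjusted p = 0.012, limma). On all arrays the 16 mitosis genes were all higher too, by a median of 1.67, as were all 8 macrophage, all 6 endothelial and 6 of 7 stellate cell markers. Macrophage marker means ran from 7.89 to 8.40 in the double knockout and 5.57 to 6.50 in the control, and their part was not tested.

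With KEAP1 lost alone, no member was called on all arrays in either tissue, and 3 were called in liver when the arrays in doubt were left out. In hepatocytes 0 of 34 were called against control, where 1.87% of all genes were, and 4 members and 2567 genes had an unadjusted p under 0.05 (limma). Mcm6 measured 4.96, 5.00 and 4.54 in KEAP1 knockout hepatocytes, against 4.77, 4.19 and 4.25 in the control. Rrm2 measured 4.88, 5.26 and 4.90 in the KEAP1 knockout, against 5.20, 5.04 and 5.40 in the control. In KEAP1 knockout against control liver 0 members were called, as was 0% of all genes, with 2 members and 1447 genes at an unadjusted p under 0.05 (limma). Without the arrays in doubt that comparison called 2 higher, Mcm2 (0.78 ± 0.20) and Mcm6 (1.13 ± 0.21), and 1 lower, Mcm10 (-1.82 ± 0.20), where 5.26% of all genes were called and 3.71% higher. Without control 3 alone 2 members were called, and no number over all genes is given for that setting. On all arrays 1 member lay without overlap above control liver and 2 below, where 5.19% and 6.45% of all genes did. With those in doubt left out, 18 lay above, where 17.3% of all genes did, and 3 below, where 18.9% did. The median change over members was then 0.29, with 27 of 34 above 0, and 15 members and 3856 genes had an unadjusted p under 0.05 (limma).

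With KEAP1 lost in both groups, 4 members were higher in hepatocytes that also lacked NEMO: Mcm6, Lig1, Rrm1 and Rrm2. Of all genes, 2.75% were called in that comparison of double with KEAP1 knockout, and 2.16% higher. Mcm6 was at 6.03, 6.50 and 5.78 in the double knockout, against 4.96, 5.00 and 4.54 in the KEAP1 knockout (1.27 ± 0.20, adjusted p = 0.00532, limma). Rrm1 was at 6.28, 6.55 and 6.36 in the double knockout, against 5.57, 5.77 and 5.62 in the KEAP1 knockout (0.74 ± 0.13, adjusted p = 0.0109, limma), and none of the arrays overlapped for either gene. Rrm2, at 5.89, 6.58 and 6.05 in the double knockout against 4.88, 5.26 and 4.90 in the KEAP1 knockout, changed by 1.16 ± 0.23, and Lig1, at 5.23, 5.74 and 5.07 in the double knockout against 4.62, 4.49 and 4.54 in the KEAP1 knockout, by 0.79 ± 0.17. Leaving out KEAP1 knockout 1, KEAP1 knockout 3 or double knockout 2 left 1 member called, where 239, 196 and 157 genes were in that order. The 5 called without the arrays in doubt hold these 4 and Pcna, where 3.78% of all genes were called and 2.83% higher. On all arrays macrophage markers were higher in 5 of 8 and stellate cell markers in 4 of 7 in this comparison, and endothelial markers in 0 of 6. Their mean levels ran from 7.89 to 8.40, 5.72 to 5.92 and 7.83 to 8.00 in the double knockout, against 6.34 to 7.10, 5.10 to 5.20 and 7.08 to 7.60 in the KEAP1 knockout, with no overlap, and their part was not tested. In liver, 0 members were called between the same genotypes, as was 0% of all genes, with 7 members and 1429 genes at an unadjusted p under 0.05 (limma). There, 13 members lay without overlap above the KEAP1 knockout, where 7.4% of all genes did, and 0 below it, where 8.53% did. Leaving out the arrays in doubt still called 0 members, with 0.0531% of all genes called.

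With NEMO lost in both groups, 9 of 34 members had a change above 0 in hepatocytes that also lacked KEAP1, and 14 of 34 when the arrays in doubt were left out. With those arrays left out, Cdt1 and Gins3 were higher with no overlap of the groups, where 17.1% of all genes were, and 5 members lower, where 16% were. The double knockout differed from the NEMO knockout by a median of -0.13 over members and -0.01 over all genes. The single call was Mcm7, at 5.44, 5.47 and 5.31 in the double knockout, against 6.22, 5.80 and 6.16 in the NEMO knockout (-0.65 ± 0.13, adjusted p = 0.0153, limma), where 3.32% of all genes were called. That call was lost without NEMO knockout 1, without NEMO knockout 3, and without the 4 arrays in doubt. Of the 16 mitosis genes, 6 were lower on all arrays, with a median of -1.0, and 2 without those in doubt. In liver 0 members and 1.05% of all genes were called (0.414% higher, 0.632% lower), with 5 members and 2241 genes at an unadjusted p under 0.05 (limma), and 7 members lay without overlap below the NEMO knockout, where 9.74% of all genes did, and 0 above it, where 8.87% did. Rrm2 was called lower there once those in doubt were left out, where 3.46% of all genes were called, 1.92% higher and 1.54% lower. It measured 6.02 and 5.86 in the double knockout, against 6.62, 6.63 and 7.52 in the NEMO knockout (-0.98 ± 0.23, adjusted p = 0.038, limma). The 1 call among 34 members lies near the share of all genes called.

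The test of whether the 2 losses combine other than additively called 0 members in either tissue, where it called 0.0106% of all genes in liver and 0.0425% in hepatocytes (limma). At an unadjusted p under 0.05 it had 5 members and 952 genes in liver and 5 members and 1869 genes in hepatocytes. The median interaction over members was -0.25 in liver and -0.18 in hepatocytes, and that over all genes 0.01 and -0.00. With the arrays in doubt left out, 0 members were again called, where 0.345% of all genes were in liver and 0.117% in hepatocytes. The median over members was then -0.44 in liver, with 14 members and 2640 genes at an unadjusted p under 0.05, and -0.14 in hepatocytes, with 4 members and 1628 genes (limma).

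In whole liver, NEMO loss raised 2 members on all arrays, and many more lay above 2 of the 3 controls. Rrm2 measured 6.62, 6.63 and 7.52 in NEMO knockout liver, against 5.00, 4.71 and 6.17 in control liver (1.63 ± 0.33, adjusted p = 0.0353, limma), a 3.09-fold difference. Rfc3, a subunit of the clamp loader, measured 5.65, 5.41 and 5.75 in the NEMO knockout, against 4.91, 4.67 and 4.91 in the control (0.77 ± 0.14, adjusted p = 0.0254, limma). Neither gene overlapped between the groups. Of all genes 1.33% were called, and the members' median change was 0.47, against -0.04 over all genes. The groups did not overlap for 13 higher members, where 10.7% of all genes did so.

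Single arrays moved this count. Without control 3, 18 members were called (17 higher, 1 lower), where 1409 of 18820 genes were. Without the 4 arrays in doubt 19 members were called (18 higher, 1 lower), where 12% of all genes were called and 8.48% higher. Leaving out those in doubt, 26 members lay without overlap above control liver, where 19.8% of all genes did, and 2 below, where 22.8% did. Without control 1, control 2, NEMO knockout 1 or NEMO knockout 3, 0 members were called, where 28, 43, 116 and 23 genes were in that order. Without NEMO knockout 2, 1 member was called, where 140 genes were.

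Mcm6 measured 6.38, 6.59 and 6.86 in NEMO knockout liver, against 4.49, 4.77 and 6.59 in control liver. The change was 1.33 ± 0.42 on all arrays (adjusted p = 0.131, limma). It was 1.98 ± 0.21 with those in doubt left out (adjusted p = 0.000258, limma). Mcm5 was at 5.53, 5.42 and 5.90 in the NEMO knockout, against 3.86, 4.27 and 5.55 in the control (1.55 ± 0.19 without the arrays in doubt), and Mcm2 at 6.11, 5.73 and 6.60 in the NEMO knockout, against 4.81, 4.82 and 5.91 in the control (1.33 ± 0.20). In each, control 3 lay with the knockouts. With the same arrays left out, 5 of 6 MCM subunits were called, all but Mcm7.

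Rrm1 measured 6.50, 6.52 and 7.12 in NEMO knockout liver, against 5.16, 5.56 and 6.46 in control liver (1.35 ± 0.19 without the arrays in doubt, adjusted p = 0.00101, limma). Prim1 was at 5.52, 5.39 and 5.77 in the NEMO knockout, against 3.51, 4.64 and 5.21 in the control (1.48 ± 0.28). Chaf1b was at 4.76, 4.90 and 4.96 in the NEMO knockout, against 3.79, 3.49 and 4.29 in the control (1.23 ± 0.24). Of the members not called in hepatocytes, Orc6, Cdt1, Mcm4, Pola1, Pola2, Prim2, Pcna, Rfc3, Rpa2 and Chaf1b were called higher in liver without the arrays in doubt, with changes of 0.58 (Pola1) to 1.24 (Mcm4). Pcna measured 8.17, 8.02 and 8.40 in NEMO knockout liver, against 7.58, 7.42 and 8.32 in control liver, and Lig1 5.28, 5.02 and 5.41 in the NEMO knockout, against 4.58, 4.52 and 5.30 in the control. Cdc45 was at 4.63, 4.94 and 5.08 in the NEMO knockout, against 4.49, 4.22 and 4.86 in the control, and Rpa2 at 4.92, 4.85 and 5.38 in the NEMO knockout, against 4.27, 4.23 and 4.97 in the control. In these 4 genes 1 control array, control 3, overlapped the knockout. The difference between the tissues was tested for each and is given below.

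**Figure D5:**
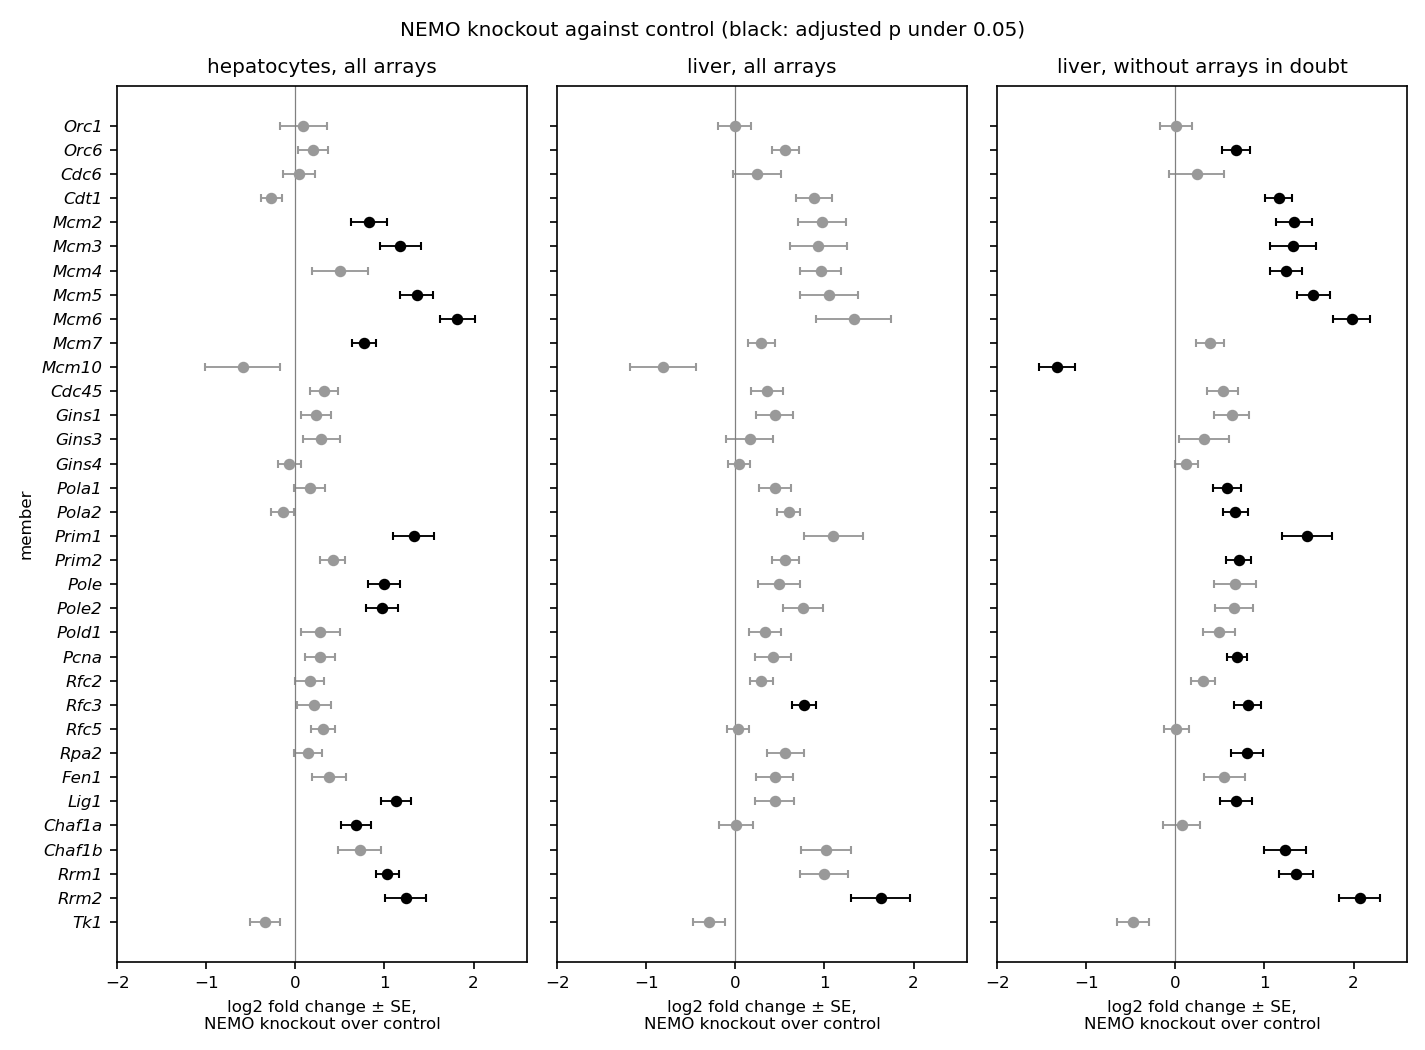
Log2 fold change of each member, NEMO knockout over control, with its SE as the bar, in hepatocytes on all arrays, in liver on all arrays, and in liver without the 4 arrays in doubt; black points have an adjusted p under 0.05. The 12 black points in hepatocytes are all above 0, and liver has 2 on all arrays and 19 without those in doubt.

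The other lists in liver had the same dependence on control 3. The mitosis genes were higher in 8 of 16 on all arrays, by a median of 1.76, and in 16 of 16 without the arrays in doubt. Macrophage markers had 0 of 8 called on all arrays and 6 higher without those in doubt, and their means ran from 7.89 to 8.14 in NEMO knockout liver and 7.07 to 8.20 in control liver. Stellate cell markers had 2 of 7 and then 5 of 7 higher, with means of 7.51 to 7.91 in the knockout and 6.03 to 7.01 in the control. Hepatocyte markers had 0 of 8 called in both. The part of the other cells in the liver values was not tested.

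Double knockout against control liver called 0 members on all arrays, where 0.00531% of all genes were called, with 16 members and 3901 genes at an unadjusted p under 0.05 (limma). With the replicate number as a block, 2 were called, Pcna (0.67 ± 0.14, adjusted p = 0.0329) and Mcm10 (-1.32 ± 0.32, adjusted p = 0.0469, limma). With control 3 alone left out 13 were called. No number over all genes is given for this count or the blocked one. They do not tell a move of the members from a move of all calls. Leaving out all 4 in doubt gave 13 as well, 11 higher and 2 lower, where 9.2% of all genes were called and 2.84% lower. The groups then did not overlap for 26 higher members and 3 lower ones, where 25.4% and 29.1% of all genes did so, against 2 higher on all arrays, where 8.45% did. Pcna measured 8.26, 8.37 and 8.69 in the double knockout, against 7.58, 7.42 and 8.32 in the control (0.81 ± 0.13 without the arrays in doubt). Mcm6 measured 5.99, 6.73 and 6.63 in the double knockout, against 4.49, 4.77 and 6.59 in the control (1.73 ± 0.23), and Mcm5 5.39, 5.56 and 5.57 in the double knockout, against 3.86, 4.27 and 5.55 in the control (1.41 ± 0.21). The 2 lower ones were Mcm10 and Tk1. Macrophage markers had 6 of 8 and endothelial markers 4 of 6 higher with those arrays left out and 0 on all arrays, and their part was not tested.

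The departures from the rest were Mcm10, Tk1 and Cdt1. Mcm10, which helps to start the helicase, measured 4.92, 5.51 and 4.65 in double knockout liver, 5.49, 5.44 and 5.67 in NEMO knockout liver, and 4.74, 5.28 and 5.12 in KEAP1 knockout liver, against 6.70, 7.04 and 5.29 in control liver. It was lower than on control arrays 1 and 2 on every knockout array. With those in doubt left out, its changes against control liver were -1.66 ± 0.22, -1.33 ± 0.20 and -1.82 ± 0.20 in that order, with adjusted p of 0.000981, 0.00157 and 0.00039 (limma), and none was called on all arrays. In hepatocytes Mcm10 was at 5.75, 4.82 and 4.51 in the double knockout and 6.28, 5.25 and 5.52 in the NEMO knockout, against 5.21, 6.85 and 6.77 in the control. The KEAP1 knockout hepatocytes were at 5.99, 6.53 and 6.21, with a mean of 6.24 against 6.28 in the control.

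E2f8, an E2F family repressor, had a like order in liver, at 4.27, 4.52 and 4.63 in the double knockout and 4.16, 4.54 and 5.39 in the KEAP1 knockout, against 6.75, 6.78 and 5.05 in the control. The NEMO knockout, at 5.78, 5.79 and 6.42, lay nearer the control. Both genes had liver control 3 apart from the other controls.

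Tk1 measured 6.08, 6.35 and 6.19 in double knockout liver, against 6.78, 7.0 and 6.37 in control liver. It was called lower when those in doubt were left out (-0.68 ± 0.19, adjusted p = 0.0486, limma), and not on all arrays, while Rrm1 and Rrm2, of the same role, were higher. Tk1's second probe set was at 5.82, 6.07 and 5.73 in double knockout liver, against 5.97, 6.4 and 6.06 in control liver. Cdt1, the helicase loader, had changes of opposite sign in the tissues, and neither was called on all arrays. In liver it measured 5.44, 5.32 and 5.72 in the NEMO knockout, against 4.35, 4.33 and 5.16 in the control, and in hepatocytes 5.00, 4.92 and 5.09 in the NEMO knockout, against 5.38, 5.15 and 5.30 in the control.

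The NEMO change in hepatocytes minus that in liver, tested directly, called 0 members on all arrays, where 0.0691% of all genes were called, with 6 members and 1781 genes at an unadjusted p under 0.05 (limma). Cdt1 had -1.16 ± 0.23 (adjusted p = 0.0692). It was the single member called once those in doubt were left out, at -1.38 ± 0.19 (adjusted p = 0.00743, limma). It was also called with hepatocyte control 2 or liver control 3 left out. For the other members the test showed no difference between the tissues at this threshold, which does not show that they respond alike.

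Between the tissues themselves, few members differed. Control hepatocytes had Cdt1 higher than control liver (0.67 ± 0.17, adjusted p = 0.0188) and Chaf1a lower (-0.67 ± 0.18, adjusted p = 0.0368, limma), where 5.13% of all genes were called. These 2 calls among 34 members lie near that share. Chaf1a measured 3.96, 3.54 and 3.75 in control hepatocytes, against 4.27, 4.46 and 4.53 in control liver. Cdt1 alone was called with those in doubt left out (0.89 ± 0.15), where 3.06% of all genes were, so 1 call among 34 members is near the background. Cdt1's call was lost without hepatocyte control 1 or 3 or liver control 1 or 2, and Chaf1a's without hepatocyte control 2 or 3 or liver control 2 or 3.

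The other genotypes called 0 members between hepatocytes and liver. The share of all genes called was 2.24% in the double knockout, 3.77% in the NEMO knockout and 2.49% in the KEAP1 knockout (limma). At an unadjusted p under 0.05 there were 2, 5 and 5 members and 3191, 3820 and 2955 genes in the same order. Leaving out those in doubt, the NEMO knockout had Cdt1 (-0.49 ± 0.12) and Pola2 (-0.43 ± 0.13) lower in hepatocytes, where 7.86% of all genes were called. With 6.47% of all genes called, the KEAP1 knockout had Mcm10 (1.20 ± 0.25) and Tk1 (0.52 ± 0.15) higher and Mcm6 (-0.93 ± 0.18) lower. Both counts of members lie near the share of all genes, and in the double knockout 0 members were called, where 0.792% of all genes were. Of the macrophage markers 8 of 8 were lower in control hepatocytes than in control liver, or 4 of 8 with those in doubt left out, and of the endothelial markers 6 of 6 either way, and their part was not tested.

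The licensing factors Orc1 and Cdc6 were dim and were not called. Orc1 measured 3.30, 3.13 and 2.38 in NEMO knockout hepatocytes, against 2.97, 2.69 and 2.88 in control hepatocytes. Cdc6 measured 3.46, 3.42 and 3.51 in the NEMO knockout, against 3.67, 3.30 and 3.30 in the control. In liver Cdc6 was at 2.91, 3.34 and 4.15 in the NEMO knockout, against 2.94, 3.51 and 3.24 in the control. Neither was called in any of the 17 comparisons, with or without the arrays in doubt, and at such signals a change may not be detectable on these arrays. Fen1 measured 4.48, 4.58 and 5.28 in NEMO knockout liver, against 4.43, 4.03 and 4.56 in control liver, and Pola1 4.84, 4.94 and 5.00 in the NEMO knockout, against 4.53, 4.16 and 4.76 in the control. The groups overlapped for Fen1 and not for Pola1.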

How the data were processed

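The deposited table holds log2 values, 1 per probe set and array. The submitters' processing notes name RMA, and its version is not given here. There are 35556 probe sets, of which 21218 have 1 symbol in the platform annotation, 1881 several and 12457 none listed. For each of 18820 genes the probe set with the highest mean was kept. Values were used as deposited, with array medians of 4.03 to 4.23 over all probe sets and 4.4 to 4.97 over the 18820 genes. In hepatocytes the latter were 4.59 to 4.62 in the NEMO knockout and 4.4 to 4.48 in the control. The values were fitted with limma 3.58.1 in R 4.3.3 (lmFit, eBayes with an intensity trend), on the 12 arrays of a tissue or all 24 for tissue comparisons. P-values were adjusted by Benjamini-Hochberg over all genes, for 17 comparisons, and the fit was tested on simulated data. Having 3 arrays a group limits precision. Arrays in doubt were left out as an alternative chosen after the data were seen. Members, lists and tests were chosen with earlier results of these data known. Per-array values are given for the 8 called members with the largest change in a comparison (all, if fewer) and, mainly in the NEMO comparisons, for 1 fixed member per role, of which Rfc4 and Tyms were not found. Other genes were chosen after their values were seen.

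Replicate numbers met the pairing rule for 1 pair of groups, liver double knockout and liver control (correlations of deviations 0.115, 0.136 and 0.23, the last between 2 arrays in doubt), so the blocked value stands beside that comparison.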

Additional observations from a re-analysis of the deposited data

Results flagged for a closer look

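Cdt1 and Rfc3 moved in opposite directions in the 2 tissues on every array of the groups compared. The share of all genes doing so in both tissues was not computed, and none of the changes below was called on all arrays. Cdt1 changed by -0.27 in hepatocytes and 0.88 in liver, NEMO knockout against control. The difference was tested above (adjusted p = 0.0692 on all arrays, limma). Rfc3 changed by -0.22 in hepatocytes and 0.26 in liver, KEAP1 knockout against control, and that difference was not tested.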

How the results depend on the processing

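Limits: 3 arrays a group, 4 of the 24 arrays in doubt, and dim probe sets. For the single-member results followed through the alternatives, 788 values kept their side of the threshold, 77 lost a call, 93 gained one and 0 reversed. The cause was not tested. NEMO knockout against control liver moved most: 5 members called with genes of a mean of at least 4 only, 1 after quantile normalization, 9 with a replicate block (where the numbers share only a number) and 0 with only those 2 groups in the fit. It had 19 without the 4 arrays in doubt, where 12% of all genes were called. With 1 array left out it had 0 to 18, where 23 to 1409 genes were called. Where no number for all genes is given, a count does not tell a move of the members from a move of all calls. Without the 4 arrays in doubt the other liver counts were 3 (KEAP1 knockout against control), 13 (double knockout against control) and 1 (double against NEMO knockout). The shares of all genes called were 5.26%, 9.2% and 3.46% in that order. The replicate block gave 2 for double knockout against control liver. Leaving out 1 array gave 0 to 2 for KEAP1 knockout and 0 to 13 for double knockout, each against control liver.

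In hepatocytes leaving out 1 array gave 4 to 10 for double knockout against control, 0 to 1 for double against NEMO knockout and 1 to 4 for double against KEAP1 knockout. All genes called ran from 1042 to 1946, 293 to 530 and 157 to 571 in that order. Double against NEMO knockout had 0 with only the 2 groups in the fit and 0 without the arrays in doubt. Between tissues, the control count was 1 after quantile normalization, 1 without the arrays in doubt and 0 to 3 with 1 array left out (638 to 964 genes). Without the arrays in doubt the NEMO knockout had 2, the KEAP1 knockout 3 and the difference of NEMO changes 1. With 1 array left out these gave 0 to 1 for the NEMO knockout and for that difference. The replicate block changed no other count by over 1.5 times.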
